A study of Rattus norvegicus with 6 samples.

Results

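The genes described here are 7 immune regulators often named as candidate mediators of transplant tolerance: Ctla4, Lag3, Il10, Tgfb1, Ido1, Socs3 and Nt5e. They were taken by name from the platform's probe annotation, which lists 1 probe for each of them, among 5990 genes with a named probe on the array. All 7 probes passed a filter that left out probes whose mean log2 level over the arrays was under the lower quartile (7.76). None of the 7 genes lies on the rat chromosome that carries the MHC, the region in which the donor kidneys of the groups differed.

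RNA from frozen sections of kidney grafts taken on day 100 was measured on 6 Applied Biosystems rat arrays, 3 for each group. In the tolerated group, LEW.1W kidneys (MHC haplotype RT1u, 8 to 12 weeks old) had been grafted into LEW.1A rats (RT1a) given antibodies against the class II molecules of the donor, and the recipients' own kidneys were taken out on day 7. In the syngeneic group, LEW.1A kidneys had been grafted into LEW.1A rats, with no antibody named in the labels for them, and donor age and the fate of the recipients' own kidneys unstated. Donor haplotype, MHC mismatch and antibody treatment changed together, so their parts in any difference cannot be told apart.

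The 7 genes act at different points of immune restraint. Ctla4 and Lag3 are inhibitory receptors on activated and regulatory T cells: CTLA-4 binds CD80 and CD86 in competition with CD28, and LAG-3, a relative of CD4, binds MHC class II. Interleukin 10 and TGF-beta 1 are suppressive cytokines, the latter also the main driver of matrix deposition in injured kidney. SOCS3 is a feedback inhibitor of some, but not all, receptors that signal through STAT3. IDO1 breaks down tryptophan along the kynurenine route, and the product of Nt5e (CD73) forms adenosine from AMP on the cell surface, in the kidney also on tubular and interstitial cells.

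Raw intensity medians were 760, 745 and 991 in tolerated replicates 1 to 3 and 421, 538 and 707 in syngeneic replicates 1 to 3. Every tolerated array was brighter than every syngeneic one before normalization. Levels below are log2 intensities after quantile normalization, which gives all arrays the same distribution and so removes that difference between the groups. The labels do not say whether the 3 arrays of a group stand for 3 animals, so each p-value is read against the spread between arrays, and their number limits the precision. Syngeneic replicate 3 stood apart from its group: on the first principal component it lay at -33.2, where syngeneic replicates 1 and 2 lay at -112.3 and -108.0 and the tolerated arrays between 75.3 and 100.8. Results that rest on it are given with and without it. The kidney markers Umod and Aqp2 were bright on every array, at 20.10 or more and 15.02 or more.

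Lag3, Socs3, Tgfb1 and Ctla4 were higher in tolerated grafts, Nt5e was lower, and Il10 and Ido1 did not pass the threshold, an adjusted p under 0.05 in limma. These 5 calls of 7 stood against 25.2% of all tested probes and 32.7% of tested named genes called in either direction. By direction, 15.5% of tested named genes were called higher and 17.2% lower, the background for every list count below. The 3 tolerated values did not overlap the 3 syngeneic ones for 6 of the 7 genes, against 47.3% of tested probes and 55.7% of tested named genes. The median absolute log2 fold change was 2.43 over the 7 genes and 0.61 over the 4955 named genes tested. Since the genes were chosen with results of these data known, the counts describe them and test nothing.

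**Figure D1:**
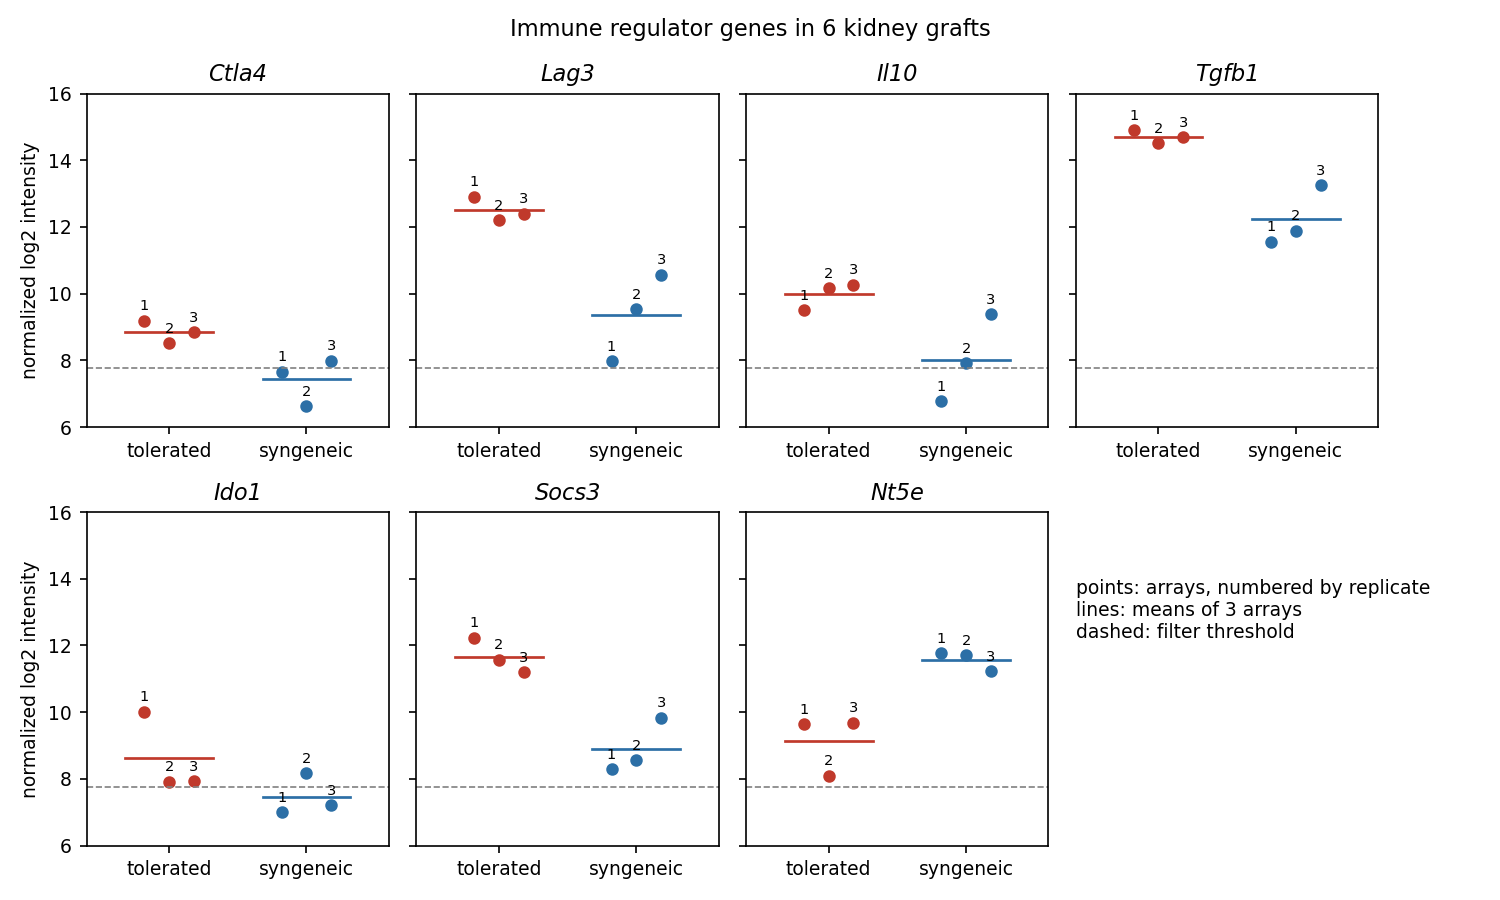
Normalized log2 intensity (vertical axis) of each of the 7 genes in the 3 tolerated and 3 syngeneic arrays. Points are arrays numbered by replicate, lines are group means, and the dashed line is the filter threshold of 7.76. The groups overlap for Ido1, for which tolerated replicate 1 stands alone at 10.02, and syngeneic replicate 3 is the highest of its group for Ctla4, Lag3, Il10, Tgfb1 and Socs3. Levels of different genes come from different probes and are not to be compared.

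Of the inhibitory receptors, Lag3 (probe 21624093) had the larger change. Its level was 12.91, 12.21 and 12.39 in tolerated replicates 1 to 3 and 7.97, 9.53 and 10.57 in syngeneic replicates 1 to 3. The tolerated arrays lay within 0.70 of each other, while the syngeneic ones spread over 2.60. The means were 12.50 ± 0.36 and 9.36 ± 1.31 (SD, n = 3 each), or 8.86-fold higher in tolerated grafts (95% interval 2.87 to 27.3, adjusted p = 0.0228 in limma). The log2 fold change of 3.15 became 2.45 without syngeneic replicate 1, the array with the lowest value, and 3.73 without syngeneic replicate 3. Those were also the fits with 1 array left out in which Lag3 passed (adjusted p = 0.0351 and 0.00953). It did not pass when any of the tolerated arrays or syngeneic replicate 2 was left out (limma, adjusted p = 0.0617 to 0.0740).

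Ctla4 (probe 21878860) was dim, and its change was the least secure of those called. It stood at 9.19, 8.51 and 8.84 in tolerated replicates 1 to 3 and at 7.66, 6.63 and 8.00 in syngeneic replicates 1 to 3. The groups were parted by 0.51 on the log2 scale, and the syngeneic mean of 7.43 lay under the filter threshold of 7.76, so the size of the fold rests on a level near the bottom of the array's range. It was 2.67-fold higher in tolerated grafts (95% interval 1.35 to 5.27; limma, adjusted p = 0.0496). With 1 array left out Ctla4 passed without syngeneic replicate 3 (adjusted p = 0.0347) and not in the 5 other fits (limma, 0.0800 to 0.135). It also missed the threshold when arrays were scaled to equal medians (log2 fold change 1.19, adjusted p = 0.0535).

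The cell markers moved in the same arrays. All 9 tested T cell markers had positive changes and 7 were called higher, a number that was 8 without syngeneic replicate 3, 1 without syngeneic replicate 2 and 0 without any of the other arrays. The mean log2 level of the T cell list was 11.97 to 12.50 in tolerated arrays and 9.24, 9.70 and 11.17 in syngeneic replicates 1 to 3, and no T cell marker had a syngeneic mean under the filter threshold. In whole tissue, a change in the number of cells of a type and a change in RNA per cell cannot be told apart. Relative to the mean of the T cell list on the same array, Lag3 differed between the groups by 0.88 (pooled SD 0.60; exact permutation test, two-sided, p = 0.2), Ctla4 by -0.85 (pooled SD 0.76, exact p = 0.3) and Il10 by -0.31 (pooled SD 0.29, exact p = 0.3). The groups overlapped for all 3 relative levels, whereas 78.4% of all tested probes were lower in every tolerated array and 1.14% were higher when set against the same list. The smallest p that 3 against 3 arrays allow is 0.1, and over the 10 such pairs of gene and list the Benjamini-Hochberg adjusted p was 0.4 or more. A relative level shows only whether a gene and a list changed unequally. Of 7 natural killer cell markers 4 were called higher (1 without syngeneic replicate 2, 2 without tolerated replicate 1 or 3 or syngeneic replicate 1, and 5, with 1 called lower, without syngeneic replicate 3). Of 3 B cell markers 2 were called higher (3 without syngeneic replicate 3 and 1 without any other array).

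Ligands and relatives of these receptors were higher in tolerated grafts wherever they were called. Of 40 co-stimulation and checkpoint genes listed, other than Ctla4 and Lag3, 18 had a named probe and 17 were tested. Pdcd1, Cd274, Havcr2 and Tigit were among those without a named probe. Of the 17 tested, 8 were higher, 0 lower and 9 not called. The background was 15.5% of tested named genes called higher and 17.2% called lower. The list median was a log2 fold change of 1.48, against -0.04 over all tested named genes, and 13 of the 17 changes were positive. Fgl1 had the largest fall of the list and was not called (-2.36; limma, adjusted p = 0.206). Its log2 fold change ranged from -3.56 to -1.11 with 1 array left out, and it passed in none of these fits. Cd86, a ligand of CTLA-4 carried by antigen-presenting cells, rose by 1.88 ± 0.32 (SE, adjusted p = 0.0138). Cd80, the other ligand, was under the filter with levels of 5.94, 7.44 and 8.56 in tolerated and 7.19, 6.86 and 7.04 in syngeneic arrays. Cd28, the activating receptor for the same ligands, had -0.31 ± 0.80 (SE, adjusted p = 0.811), with 10.57 in syngeneic replicate 2 as its highest value. Without that array its log2 fold change turned to 0.61, and it passed in no fit with 1 array left out. Icos, a further receptor of the family induced on activated T cells, had 1.81 ± 0.54 (SE, adjusted p = 0.0572), and Cd4, at its lowest (6.48) in syngeneic replicate 1, had 2.18 ± 0.71 (SE, adjusted p = 0.0730), or 1.42 without that array.

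The largest called changes of that list were those of Cd40lg, the helper T cell ligand of CD40 (9.10-fold, 95% interval 3.98 to 20.8), and of the galectin gene Lgals3, which macrophages and injured tubules express (5.40-fold, 3.28 to 8.90). Fgl2, a secreted suppressor of antigen-presenting cells, followed (4.49-fold, adjusted p = 0.0160), with Cd86 and Cd276. Cd40lg had a syngeneic mean under the filter threshold. Cd40lg and Lgals3 passed with any 1 array left out. The number called higher was 3, 3 or 5 with a tolerated array left out (replicates 1 to 3 in turn), 5 or 2 with syngeneic replicate 1 or 2 left out, and 11 without syngeneic replicate 3. Both Icos and Tnfrsf4, which codes for the OX40 receptor, passed when arrays were scaled to equal medians (limma, adjusted p = 0.0459 and 0.0466). Cd200r1, which was called higher after quantile normalization (limma, adjusted p = 0.0297), was lost with equal medians (adjusted p = 0.0710). With equal medians 9 genes of the list were called higher.

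Il10 (probe 20914849) was higher in every tolerated array than in any syngeneic one, though barely. It stood at 9.50, 10.17 and 10.27 in tolerated replicates 1 to 3 and at 6.78, 7.91 and 9.39 in syngeneic replicates 1 to 3. Syngeneic replicate 3 came within 0.11 of the lowest tolerated array. The log2 fold change was 1.95 ± 0.67 (SE), or 3.87-fold (95% interval 1.24 to 12.1), and it did not pass (limma, adjusted p = 0.0839; exact permutation test p = 0.1, the smallest possible). Without syngeneic replicate 3 it passed with 2.63 (adjusted p = 0.0149), and without syngeneic replicate 1 it had 1.36 (adjusted p = 0.159).

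Genes of the interleukin 10 family and its signalling were few on the array, and 4 of 5 tested were called higher. Il10ra, the ligand-binding receptor chain, rose by 1.38 ± 0.34 (SE, adjusted p = 0.0340), from a syngeneic range of 8.30 to 9.52 to a tolerated range of 10.12 to 10.54. With 1 array left out, Il10ra passed only without syngeneic replicate 3. Stat3, the transcription factor that interleukin 10 and interleukin 6 receptors both activate, rose by 0.90 ± 0.23 (SE, adjusted p = 0.0380). Nfil3, a transcription factor induced by interleukin 10 in macrophages, rose by 2.34 (2.96 without syngeneic replicate 3), and the family member Il24 by 4.59 (3.72 without syngeneic replicate 1 and 5.46 without syngeneic replicate 3). Maf, which promotes Il10 transcription in T cells and macrophages and is also made by tubules, had -0.87 ± 0.34 (SE, adjusted p = 0.117). The number called higher fell to 0 without tolerated replicate 1, 2 or 3 or syngeneic replicate 2, to 1 without syngeneic replicate 1, and to 3 without syngeneic replicate 3, where Maf was called lower. Il10rb, Jak1 and Tyk2 were not among the named probes.

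Tgfb1 (probe 21682458) had the tightest tolerated values of the 7 genes. It stood at 14.89, 14.51 and 14.68 in tolerated replicates 1 to 3 and at 11.56, 11.89 and 13.26 in syngeneic replicates 1 to 3. Every tolerated array was at least 1.25 above every syngeneic one. Tgfb1 was 5.49-fold higher in tolerated grafts (95% interval 2.52 to 12.0; limma, adjusted p = 0.0169). The log2 fold change was 2.46, and 2.96 with syngeneic replicate 3 left out (adjusted p = 0.00233), and Tgfb1 missed the threshold in each of the 5 other fits with 1 array left out (limma, adjusted p = 0.0502 to 0.0644).

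**Figure D2:**
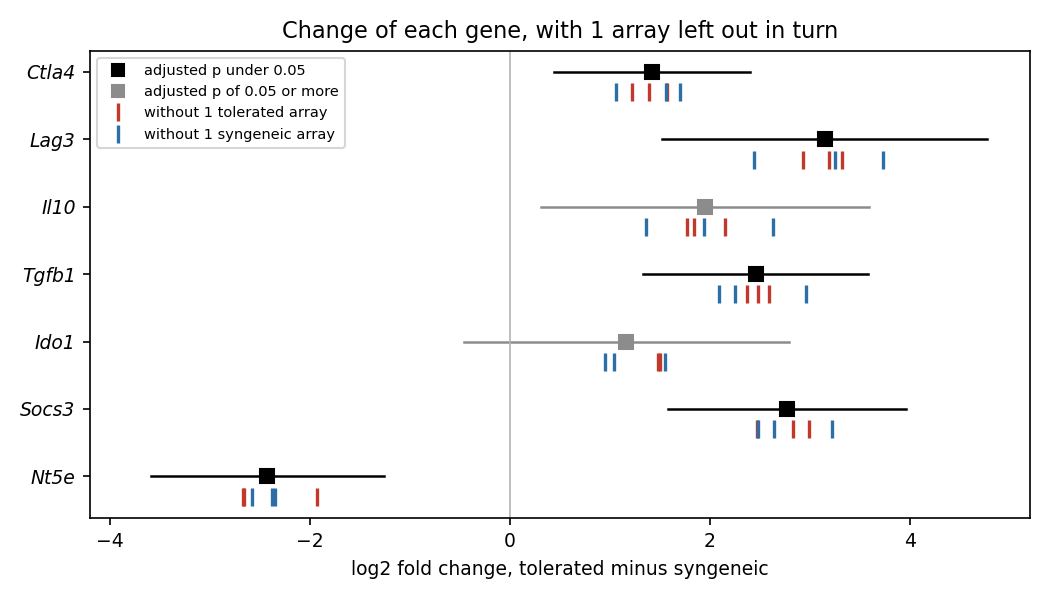
Log2 fold change, tolerated minus syngeneic (horizontal axis), of the 7 genes. Squares are the values from all 6 arrays with their 95% confidence intervals, black where the adjusted p is under 0.05 and grey otherwise, and ticks are the values with 1 tolerated (red) or 1 syngeneic (blue) array left out. No tick crosses 0, and the interval of Ido1, from -0.46 to 2.79, does. Ido1 has no tick for tolerated replicate 1, without which its probe was under the filter.

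The other TGF-beta isoforms rose with Tgfb1, while most signal transducers of the pathway were not called. Tgfb2 rose 2.88-fold (95% interval 1.67 to 4.98, adjusted p = 0.0229) and Tgfb3 2.72-fold (1.86 to 3.98, adjusted p = 0.0112). Of 19 tested pathway genes other than Tgfb1, 8 were called higher and 1 lower, beside 15.5% and 17.2% of tested named genes. The median log2 fold change was 0.63. The matrix proteoglycan genes Bgn and Dcn, whose products bind TGF-beta, rose by 1.99 and 1.52, the latent TGF-beta binding protein gene Ltbp2 by 1.99 and the activin antagonist gene Fst by 1.87. Ltbp1, which tethers latent TGF-beta to the matrix, had 0.95 ± 0.27 (SE, adjusted p = 0.0535). Bambi, a decoy receptor that dampens TGF-beta signals, was the gene that fell, from a syngeneic range of 14.52 to 14.66 to a tolerated range of 13.51 to 13.67 (95% interval of the fall 1.57-fold to 2.55-fold, adjusted p = 0.00944).

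Of the tested receptor and SMAD genes, Smad1 was the one called. Tgfbr1, the type I receptor, had 0.35 ± 0.23 (SE, adjusted p = 0.313), and the co-receptor gene Tgfbr3 had -0.42 ± 0.43 (SE). Smad2 and Smad4, which carry the signal, had 0.15 each, and Smad7, which inhibits it, had -0.16. Smad1, which mainly carries signals of bone morphogenetic proteins, rose by 0.90 ± 0.22 (SE, adjusted p = 0.0350) and passed with 1 array left out only without syngeneic replicate 3, while Smad5, its close relative, had -0.69 ± 0.41 (SE, adjusted p = 0.267). Smad3 was under the filter, and Tgfbr2 was not among the named probes. Tgfb3 and Bambi passed with any 1 array left out. Tgfb2 passed only without syngeneic replicate 3 and Fst only without syngeneic replicate 2. Leaving out tolerated replicates 1 to 3 in turn left 4, 3 and 2 called higher, leaving out syngeneic replicate 1 or 2 left 3 or 2, and leaving out syngeneic replicate 3 gave 9. With arrays scaled to equal medians it was 5, and Smad1 was not among them (limma, adjusted p = 0.150).

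Macrophage and matrix markers moved with these cytokines. All 12 macrophage and dendritic cell markers tested were called higher. Their mean level was 16.05 to 16.22 in tolerated arrays and 12.43, 12.66 and 14.17 in syngeneic replicates 1 to 3. All 4 fibroblast and matrix markers were called higher too, among them Dcn, which the TGF-beta list also holds. With 1 array left out, 6 to 12 of the macrophage and 2 to 4 of the fibroblast markers were called. Relative to the macrophage list, Tgfb1 was lower in tolerated grafts, by -0.58 with a pooled SD of 0.09, and Il10 by -1.09 with a pooled SD of 0.51. Neither overlapped between the groups (exact permutation test, two-sided, p = 0.1 each, the smallest possible, adjusted p = 0.4), but 92.1% of all tested probes were likewise lower when set against that list. Socs3 differed by -0.26 relative to it (pooled SD 0.34, exact p = 0.5), with overlap. The part of these cells in the changes was not tested.

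**Figure D3:**
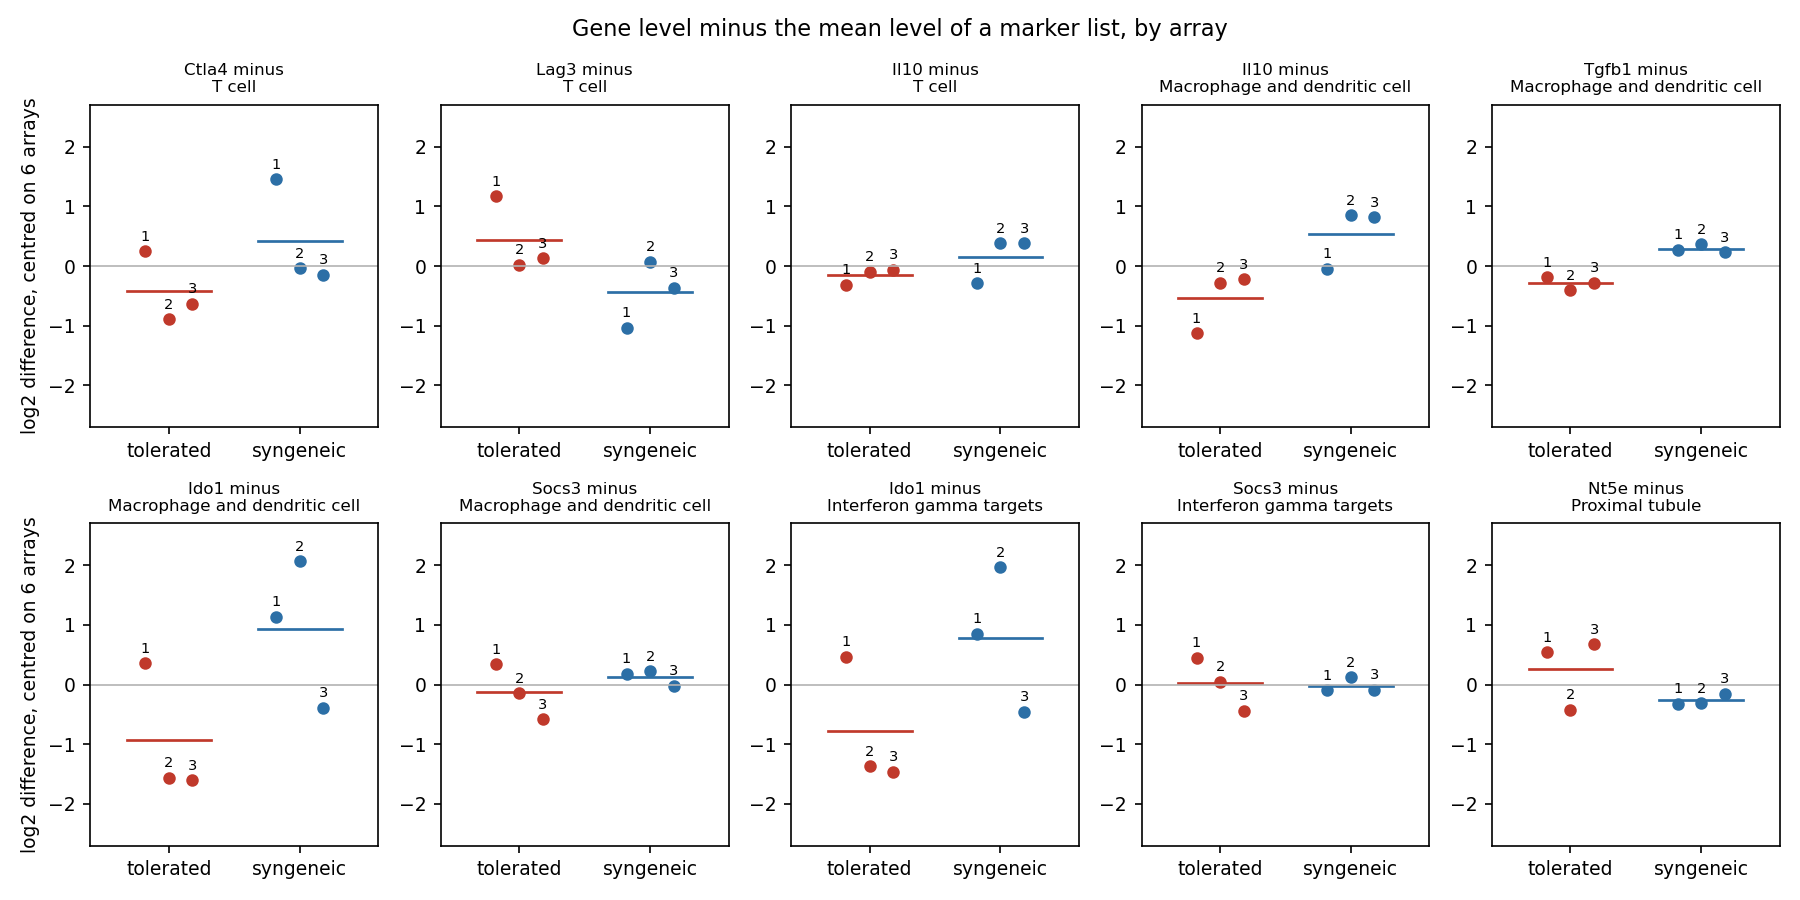
Log2 level of a gene minus the mean log2 level of a marker list on the same array, centred on the mean of the 6 arrays (vertical axis), for the 10 pairs of gene and list. Points are arrays numbered by replicate and lines are group means. The groups are apart only for Tgfb1 and Il10 against the macrophage and dendritic cell list.

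Socs3 (probe 22114908) was the called gene that depended least on single arrays. It stood at 12.24, 11.58 and 11.19 in tolerated replicates 1 to 3 and at 8.29, 8.57 and 9.83 in syngeneic replicates 1 to 3. The lowest tolerated array lay 1.36 above the highest syngeneic one. Socs3 was 6.84-fold higher in tolerated grafts (95% interval 3.00 to 15.6; limma, adjusted p = 0.0146), and it was lost without syngeneic replicate 2 (adjusted p = 0.0577). Relative to 11 interferon gamma target genes it differed by 0.04 (pooled SD 0.33, exact permutation p = 1), with overlap, where 89.7% of all tested probes were lower in every tolerated array and 0.506% were higher. The list, which includes the chemokine gene Cxcl9, the class II transactivator gene Ciita and Irf1, had 10 genes called higher (4 to 10 with 1 array left out), and its mean level was 14.81 to 15.07 in tolerated and 11.67 to 13.19 in syngeneic arrays.

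The other tested SOCS genes and Il6 changed less than Socs3. Of 21 tested SOCS and JAK-STAT genes other than Socs3, 5 were called higher and 1 lower, beside 15.5% and 17.2% of tested named genes. The median log2 fold change was 0.21. Socs1 had 0.83 ± 0.45 (SE, adjusted p = 0.232), its syngeneic values reaching from 8.47 to 9.99, and Socs2 had 0.69 ± 0.35 (SE, adjusted p = 0.206). Il6, the classical inducer of Socs3, was dim in both groups, at 8.08 to 8.81 and 8.13 to 8.42, with 0.18 ± 0.24 (SE, adjusted p = 0.606). Its receptor gene Il6r rose by 1.88 ± 0.43 (SE, adjusted p = 0.0288), and Lifr, the receptor chain for leukaemia inhibitory factor, had -0.92 ± 0.36 (SE, adjusted p = 0.121). The others called higher were the leukocyte phosphatase gene Ptpn6 (1.33), Jak3 (1.07), Stat3 (0.90) and Ptpn1 (0.86), while Pias2, an inhibitor of activated STAT proteins, fell by 0.58 on the log2 scale (adjusted p = 0.0495). Ptpn6 passed with any 1 array left out, Stat3 and Pias2 in none of these fits, and Il6r, Jak3 and Ptpn1 only without syngeneic replicate 3. The number called higher was accordingly 1 in each of these fits other than that without syngeneic replicate 3, where it was 6, and it was 3 with arrays scaled to equal medians.

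Ido1 (probe 21450982) was not shown to differ, and 1 array carried most of its mean difference. It stood at 10.02, 7.92 and 7.93 in tolerated replicates 1 to 3 and at 7.00, 8.17 and 7.21 in syngeneic replicates 1 to 3. Syngeneic replicate 2 was above tolerated replicates 2 and 3. The log2 fold change was 1.16 ± 0.66 (SE; 95% interval -0.46 to 2.79; limma, adjusted p = 0.250; exact permutation p = 0.3), and the syngeneic mean of 7.46 was under the filter threshold. Without tolerated replicate 1 the difference of means was 0.45, and the probe was too dim to be tested. Relative to the interferon gamma target list, which includes no member described here, Ido1 differed by -1.57 with a pooled SD of 1.15 (exact permutation p = 0.2). In tolerated replicate 1 that list's mean was 15.07, against 14.81 and 14.91 in replicates 2 and 3.

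The enzymes that follow IDO1 on the kynurenine route fell steeply. Of 17 tested tryptophan and kynurenine genes other than Ido1, 8 were called lower and 1 higher, beside 17.2% and 15.5% of tested named genes. The median log2 fold change was -1.17. Kmo, which hydroxylates kynurenine, stood at 12.45, 12.10 and 12.72 in tolerated and 15.97, 16.07 and 15.51 in syngeneic replicates 1 to 3, a 10.8-fold fall (95% interval 7.06 to 16.4, adjusted p = 0.00363). Kynu, which cleaves kynurenines, fell 11.6-fold and Haao, which makes the precursor of quinolinate, 10.8-fold. The groups lay far apart for each of these enzymes.

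Acmsd, which diverts that precursor away from NAD, fell 20.8-fold (95% interval 8.27 to 52.2), and Ddc, which makes serotonin and dopamine from their amino acid precursors, 22.9-fold (8.91 to 59.0). The log2 fold change of Acmsd was -4.38, and -5.01 without tolerated replicate 2. The 3 other genes called lower were Aadat (-3.03), Qprt (-2.57) and Naprt (-1.67), and the gene called higher was Slc7a5 (0.88 ± 0.17, SE), a subunit of a transporter that takes up tryptophan and kynurenine. Kmo, Kynu, Haao, Qprt, Acmsd, Ddc and Naprt passed with any 1 array left out, and the number called lower was 7 or 8 in these fits, except 13 without syngeneic replicate 3. Slc7a5 passed without tolerated replicate 2 or syngeneic replicate 3 only. Tdo2, the hepatic counterpart of IDO1, was under the filter, with 6.03 to 8.90 in tolerated and 7.72 to 8.72 in syngeneic arrays, and Afmid was not among the named probes.

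**Figure D4:**
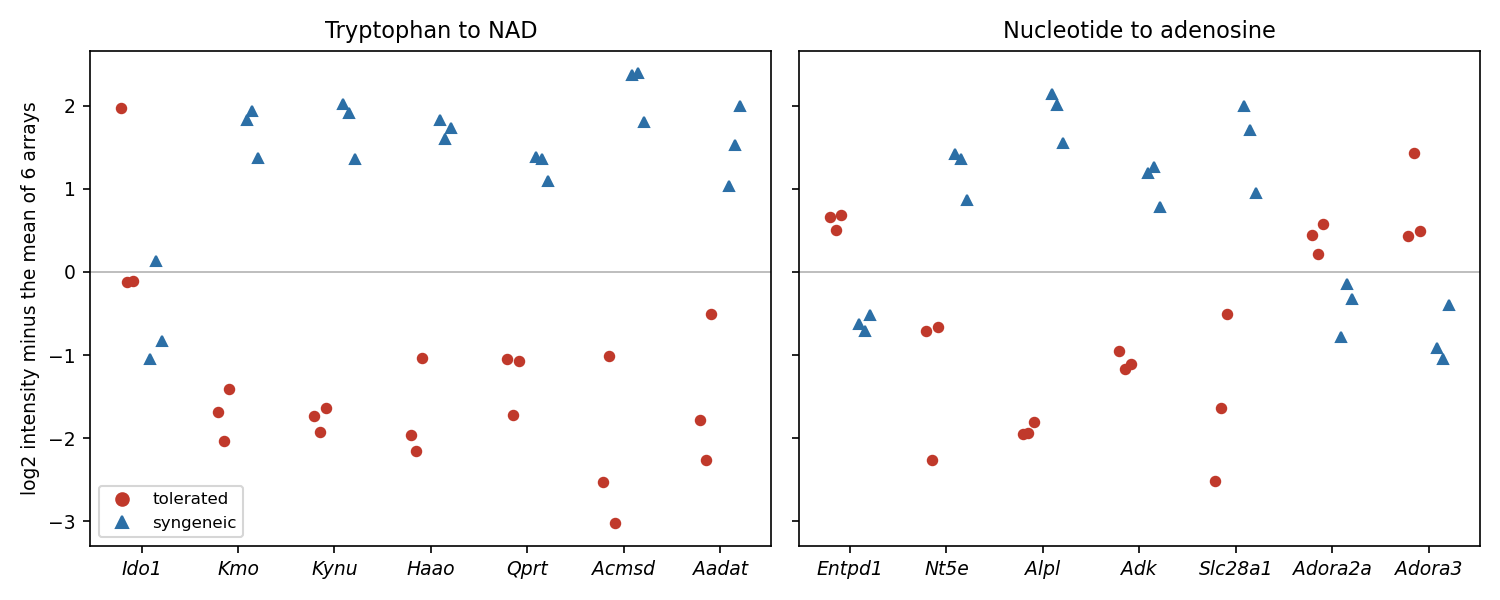
Log2 intensity minus the mean of the 6 arrays (vertical axis) for genes of the kynurenine route (left) and of extracellular nucleotide and adenosine handling (right). Red circles are tolerated arrays and blue triangles syngeneic ones, each set in the order of replicates 1 to 3. Ido1 overlaps between the groups while the enzymes that follow it, such as Kmo with a log2 fold change of -3.43, are lower in every tolerated array. Entpd1 is higher and Nt5e lower.

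Nt5e (probe 22386800) was the 1 gene of the 7 that fell. It stood at 9.64, 8.10 and 9.69 in tolerated replicates 1 to 3 and at 11.77, 11.71 and 11.22 in syngeneic replicates 1 to 3. The syngeneic values lay within 0.55 of each other, and tolerated replicate 2 was the lowest. The fall was 5.38-fold (95% interval 2.40 to 12.1; limma, adjusted p = 0.0190). It passed without any 1 of the tolerated arrays (-1.93 without tolerated replicate 2, -2.43 with all arrays) or syngeneic replicate 3, and was lost without syngeneic replicate 1 or 2 (adjusted p = 0.0667 and 0.0712).

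Entpd1, which codes for CD39 and carries out the step before CD73, moved the opposite way to Nt5e. It stood at 9.97, 9.81 and 9.99 in tolerated and 8.68, 8.60 and 8.79 in syngeneic replicates 1 to 3, a 2.35-fold rise (95% interval 1.82 to 3.02, adjusted p = 0.00653) that passed with any 1 array left out. Of the adenosine receptors, Adora3 rose by 1.57 ± 0.34 (SE, adjusted p = 0.0247) and Adora2a, the main receptor of T cells for adenosine, by 0.84 ± 0.22 (SE, adjusted p = 0.0431). Adora3 passed without syngeneic replicate 3 and in no other fit with 1 array left out, and Adora2a in none of them. Adora1 had 0.43 (adjusted p = 0.558) and Adora2b 0.45 (adjusted p = 0.233).

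Among all 33 tested nucleotide and adenosine genes other than Nt5e, 6 were called higher and 10 lower, beside 15.5% and 17.2% of tested named genes. The median log2 fold change was 0.16. The largest falls were those of Alpl, a phosphatase that also releases adenosine from AMP (log2 fold change -3.80, 95% interval of the fall 9.91-fold to 19.7-fold), and of Slc28a1, a nucleoside transporter of the tubular brush border (8.61-fold, 3.30 to 22.4). P2ry1, an ADP receptor whose tolerated mean was under the filter threshold, fell by 2.19 on the log2 scale, Adk, the kinase that removes adenosine, by 2.15 and Entpd5 by 2.10. Alpl and Adk passed with any 1 array left out, and P2ry1 passed in none of these fits. Leaving out tolerated replicates 1 to 3 in turn gave 5, 4 and 7 called lower, and leaving out the syngeneic ones gave 5, 4 and 9. The number called higher was 1 in these fits except 7 without syngeneic replicate 3, and 3 with arrays scaled to equal medians.

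Proximal tubule markers fell in the same arrays as Nt5e and the kynurenine enzymes. Of 18 tested, 15 were called lower and 0 higher, and 13 to 16 were called lower with 1 array left out. Their mean level was 13.37 to 13.95 in tolerated and 16.22 to 16.94 in syngeneic arrays, lowest in tolerated replicate 2, as Nt5e was. Relative to this list Nt5e differed by 0.53 (pooled SD 0.43, exact permutation p = 0.4), and the groups overlapped, whereas 95.3% of all tested probes were higher in every tolerated array when set against it. Of 9 markers of other kidney cells 1 was called lower. That was the podocyte gene Podxl (-0.94 ± 0.24, SE), which passed with 1 array left out only without syngeneic replicate 3. The part of proximal tubule cells in the fall of Nt5e and of these enzymes was not tested.

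**Figure D5:**
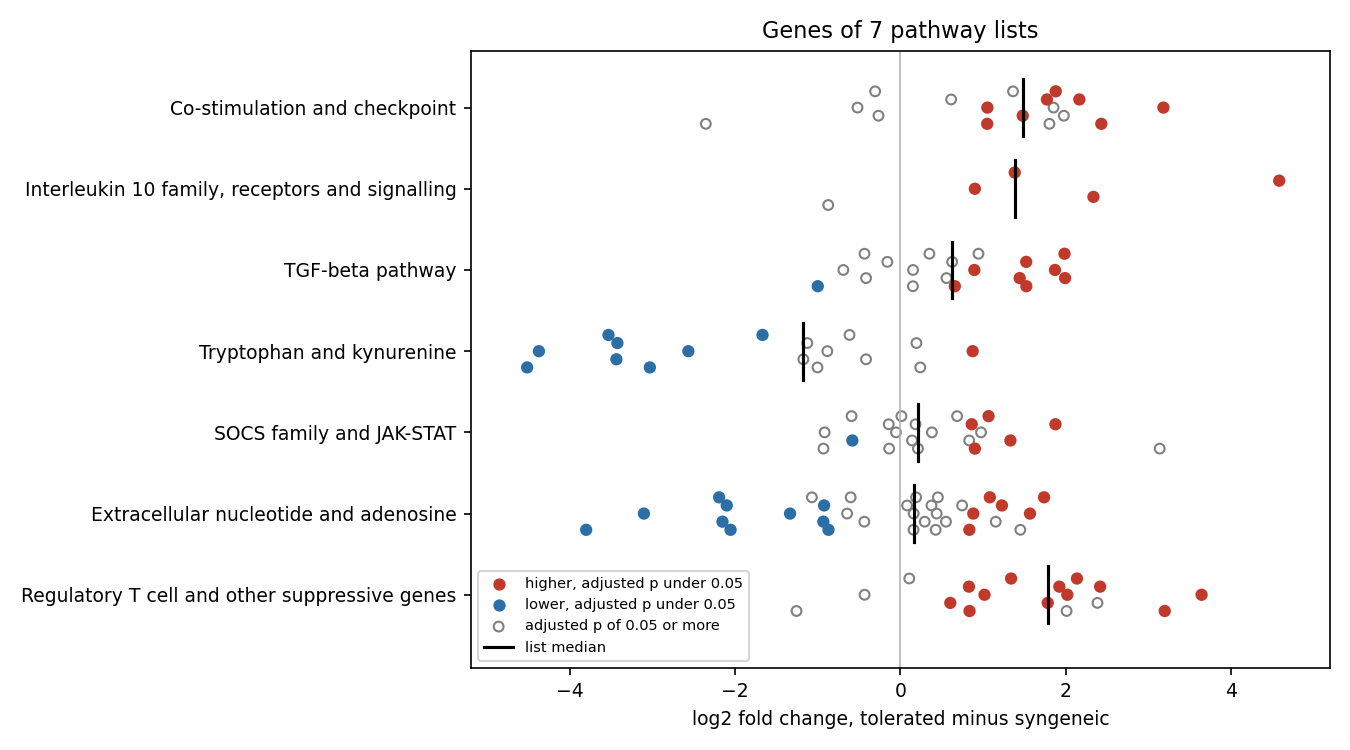
Log2 fold change, tolerated minus syngeneic (horizontal axis), of the tested genes in 7 lists, the 7 regulators themselves left out. Filled points passed the threshold (red higher, blue lower), open points did not, and black bars are list medians, from -1.17 for tryptophan and kynurenine to 1.78 for regulatory T cell and other suppressive genes.

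Genes of the list of regulatory T cell and other suppressive genes were mostly higher in tolerated grafts. Of 17 tested, 12 were called higher and 0 lower, beside 15.5% and 17.2% of tested named genes. The median log2 fold change was 1.78. Nos2, the inducible nitric oxide synthase of macrophages, rose 12.5-fold (95% interval 4.40 to 35.7; log2 fold change 3.65, and 4.33 without syngeneic replicate 3). Il2rb, a chain of the interleukin 2 receptor, rose 9.20-fold (log2 fold change 3.20, 2.52 without syngeneic replicate 2 and 4.04 without syngeneic replicate 3). Lgals1, a galectin that restrains T cells, rose 5.35-fold, the anti-inflammatory annexin gene Anxa1 4.40-fold and Il18bp, the secreted inhibitor of interleukin 18, 4.06-fold. These are not genes of regulatory T cells alone. The list also holds Ifng, the interferon gamma gene, which was among those called higher (1.93; limma, adjusted p = 0.0242). With 1 array left out, Ifng passed only without syngeneic replicate 1 or 3. Arg1 and Zfp36 went the other way and were not called (-1.26 and -0.43; limma, adjusted p = 0.0880 and 0.447). With 1 array left out, Arg1 passed only without tolerated replicate 1 and Zfp36 only without syngeneic replicate 3.

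Il2ra, the high-affinity interleukin 2 receptor chain carried by regulatory and activated T cells, had 2.01 ± 0.61 (SE, adjusted p = 0.0599) and a syngeneic replicate 1 value of 6.88 against 9.12 and 8.89 in replicates 2 and 3. Without syngeneic replicate 1 its change was 1.33. Hmox1, the haem oxygenase gene, had 1.02 (adjusted p = 0.0347) and passed in none of the fits with 1 array left out. Lgals1 and Il18bp passed in all of them. Leaving out tolerated replicates 1 to 3 in turn gave 3, 5 and 2 called higher, and leaving out the syngeneic ones gave 8, 3 and 10. Foxp3, the defining factor of regulatory T cells, was not among the named probes.

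Over the 6 arrays, Ctla4, Lag3, Il10, Tgfb1 and Socs3 varied together, with Pearson correlations of 0.71 to 0.98 between them, and Ido1 followed them less closely (0.35 to 0.67). The points share their arrays and the difference between the groups, so these values are a description. The genes most like each regulator were picked as the highest correlations among 4955 tested named genes and are high by that choice. Tgfb1 was followed most closely by Gbp2, an interferon-induced GTPase gene (0.999), and then by Emp3 and Sp140. Lag3 was followed by Lgals9, a galectin gene (0.997), Cybb, the phagocyte oxidase gene, and Il24. Those of Il10 were the T cell genes Cd6 (0.993) and Zap70 (0.989) and the myosin gene Myh10.

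For Ctla4 the nearest patterns were those of the mitotic genes Ccnb2 (0.995) and Pttg1 (0.990) and the early response gene Ier3, none of which passed the threshold (limma, adjusted p = 0.0565 to 0.0853). Socs3 was followed by Frmd8, Rfc3 and Aoc1 (0.997 to 0.998), and Nt5e by Tmem35a, Sec13 and Gorasp1 (0.997 each). Ido1 had the weakest likenesses, with the translation release factor gene Etf1 (0.983), the apelin gene Apln (0.975) and Trh (0.968), none of them past the threshold.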

How the data were processed

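RNA of 6 kidney graft samples (0.5 µg each, digoxigenin label, 1 array a sample) was measured, per the labels' protocols. The authors deposited raw probe intensity and a matrix of log2 values whose columns share 1 distribution. What scanner software, background subtraction or flags were used is not given in the labels. All value columns belonged to samples of the series.

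Raw intensities were taken to log2 (floor 1, reached by 0 values) and quantile normalized with no further background correction. Probes with a mean log2 level above the lower quartile (7.76) were tested, 20142 of 26857. Genes were named from the platform annotation (6104 probes with 1 symbol, 70 with several, 20683 with none listed; 6081 symbols matched to RefSeq, GRCr8), with the brightest tested probe standing for a gene. limma 3.58.1 in R 4.3.3 (lmFit, eBayes, two-sided, no covariate) compared the groups, and p-values were adjusted over the 20142 probes by Benjamini-Hochberg (threshold 0.05). On data simulated on these 20142 probes it recovered 64 of 100 changes of 3 on the log2 scale and 51 of 100 changes of 2. Each time it made 8 false calls, a share of its calls above the 0.05 threshold. The simulated data held 100 changed probes, where 5075 were called in the real data, so these rates need not carry over. Relative levels were compared by exact permutation.

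The genes and lists were chosen with earlier results of these data known. Text names the 7 genes, up to 5 called genes a list with the largest change and no overlap, and the 3 best correlated genes. It also names some ligands, receptors, relatives and next enzymes, fixed by name whatever their value. Tnfrsf4, Fgl1, Cd200r1, Ifng, Arg1, Zfp36, Maf, Smad1, Smad5, Podxl, Aadat, Qprt, Naprt, Slc7a5, Bambi and Pias2 and the other single genes of small counts were named after their values were seen. Alternatives were equal medians, the deposited log2 values, normexp (offset 50), other filters, a trended robust eBayes, probe averaging, a replicate block and each array left out.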

Additional observations from a re-analysis of the deposited data

How the results depend on the processing

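Every one of the 7 genes kept its direction under every alternative that gave a value. Ctla4 was lost with equal medians (1.19), no filter (1.42) and a trended robust eBayes (1.42). Deviations of same-numbered arrays from their group means correlated at -0.01, 0.01 and 0.05, and those of the other pairs at -0.03 to 0.03. With 3 arrays a group, these values cannot settle whether arrays that share a number were processed together. With the replicate block, which leaves fewer residual degrees of freedom, 1886 probes were called against 5075, and 0 of the 7 genes were called higher and 0 lower (Ctla4 1.42, Lag3 3.15, Tgfb1 2.46, Socs3 2.77, Nt5e -2.43; adjusted p = 0.0502 to 0.0634). With 1 array left out, log2 fold changes ranged from 1.06 to 1.70 (Ctla4), 2.45 to 3.73 (Lag3), 1.36 to 2.63 (Il10), 2.09 to 2.96 (Tgfb1), 2.47 to 3.22 (Socs3) and -2.67 to -1.93 (Nt5e), 0 to 5 genes were called higher and 0 to 1 lower, and 1610 to 6046 probes were called. These fits have fewer samples. Equal medians moved the share of higher calls among all called probes from 49.1% to 37.5% and the median log2 change over probes from -0.02 to -0.15. List counts of genes called higher that moved by over 1.5 times were, for TGF-beta, 8 to 5 with equal medians or no filter, for SOCS and JAK-STAT 5 to 3 and 2, for nucleotides 6 to 3 (equal medians), for the interleukin 10 family 4 to 2 and for T cell markers 7 to 2 (no filter), and for B cell markers 2 to 1 (median filter); of those called lower, TGF-beta went from 1 to 2 with equal medians, the median filter or the robust eBayes, SOCS from 1 to 0 with equal medians or no filter, other kidney markers from 1 to 2 with equal medians and to 0 with no filter, and natural killer markers from 0 to 1 with the median filter. With the block, called higher were 3 of the co-stimulation genes (8 before), 0 of the interleukin 10 family (4), 3 of TGF-beta (8), 0 of tryptophan (1), 1 of SOCS (5), 2 of nucleotides (6) and 5 of the suppressive genes (12), and lower 4 of nucleotides (10), 0 of TGF-beta (1) and 0 of SOCS (1); among markers, T cell went from 7 to 2, natural killer from 4 to 2, fibroblast from 4 to 2 and other kidney from 1 to 0. The cause of these moves was not tested. Ctla4, Il10 and Ido1 were under the filter at the median, Ido1 also without tolerated replicate 1, and averaging probes could not change genes with 1 probe. Signal over background could not be measured, which limits the dim genes Ctla4 and Ido1 most.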
